A study of Mus musculus with 4 samples.

Results

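*Foxn1* and 5 genes of the thymic cortical epithelium, *Psmb11*, *Prss16*, *Dll4*, *Ly75* and *Tbata*, were followed by their symbols in mRNA profiles of sorted mTECs. These 6 genes were found among 23337 gene symbols in the count table, and all 6 passed the filter on low counts that left 18547 genes for testing. They were taken by name and not by a threshold on measured values, but with earlier results of these data known. The profiles came from C57BL/6 mice at 4 weeks of age, in 2 WT libraries (WT 1 and WT 2) and 2 libraries labelled *Sirt6* cKO (cKO 1 and cKO 2). The cKO mice carry *Sirt6* loxp alleles and *Foxn1*-Cre (labelled Sirt6-/-), and the WT controls are littermates or age-matched mice without Cre. The cells were sorted as CD45- EpCAM+ UEA-1+ Ly51-, which keeps medullary cells and leaves out cells with the cortical surface antigen Ly51. Each library held between 61102704 and 65907745 counts, and whether a library pooled several mice is not stated in the sources used here, so p-values measure the spread between these libraries. The targeted gene *Sirt6* itself had 622 (WT 1), 755 (WT 2), 882 (cKO 1) and 835 (cKO 2) counts, so it was not lower in the cKO-labelled libraries and each direction below rests on the labels. Counts summed over a gene cannot show whether the part between the loxp sites is missing from its transcripts. Cre is driven by *Foxn1* sequence in every cKO library and in no WT library. The presence of *Foxn1*-Cre and the loss of *Sirt6* thus cannot be told apart for any gene below, *Foxn1* itself included.

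FOXN1 is the forkhead transcription factor that thymic epithelial cells need in order to differentiate, and mice without it are athymic. In the cortex it sustains genes that guide early thymocytes. DLL4, a Notch ligand, commits progenitors to the T cell fate, the thymoproteasome subunit β5t encoded by *Psmb11* makes the MHC class I peptides of positive selection, and the serine protease encoded by *Prss16* shapes the MHC class II peptides. *Ly75* encodes the endocytic receptor DEC-205 (CD205), a surface marker of cTECs that dendritic cells also carry. *Tbata*, also known as Spatial, encodes a protein of thymus, brain and testis that is found in thymic epithelium.

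FOXN1 recognises a short DNA core that contains ACGC, and the promoter windows were therefore searched for the word GACGC on both strands. A window of 300 bases around the transcription start (250 before and 50 after) was at hand in RefSeq for 5 of the 6 genes on GRCm38.p6. Matches to GACGC occurred in the *Psmb11* window alone among these 5, at positions -239 and -62 from the start, both on the minus strand. *Foxn1*, *Dll4*, *Ly75* and *Tbata* had none. The shorter ACGC was not counted, and it does occur in the *Dll4* window, as does its reverse complement GCGT in that of *Ly75*. The *Psmb11* window surrounds the RefSeq start and lies inside the GENCODE gene, which begins at 54621433. Of 32817 mouse promoter windows, 27.16% held at least 1 match and 8.13% held 2 or more. The window of *Psmb11* is shown for its matches, and those of *Dll4* and of *Foxn1* itself because their counts differ between the groups below. Capitals mark GACGC or its reverse complement GCGTC.
*Psmb11* promoter, plus strand of chr14:54625060-54625359: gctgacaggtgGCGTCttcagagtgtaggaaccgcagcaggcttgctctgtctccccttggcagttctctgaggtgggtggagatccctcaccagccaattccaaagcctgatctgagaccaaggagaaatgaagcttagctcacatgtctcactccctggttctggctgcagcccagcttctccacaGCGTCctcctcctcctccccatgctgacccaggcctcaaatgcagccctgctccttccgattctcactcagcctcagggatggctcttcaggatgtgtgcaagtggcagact
*Dll4* promoter, plus strand of chr2:119325534-119325833: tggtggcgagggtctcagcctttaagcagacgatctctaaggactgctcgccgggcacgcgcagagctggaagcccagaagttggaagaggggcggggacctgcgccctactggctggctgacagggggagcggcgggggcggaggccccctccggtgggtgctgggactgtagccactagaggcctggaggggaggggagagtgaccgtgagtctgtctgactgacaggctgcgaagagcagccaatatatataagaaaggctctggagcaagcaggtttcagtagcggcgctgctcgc
*Foxn1* promoter, minus strand of chr11:78386559-78386858: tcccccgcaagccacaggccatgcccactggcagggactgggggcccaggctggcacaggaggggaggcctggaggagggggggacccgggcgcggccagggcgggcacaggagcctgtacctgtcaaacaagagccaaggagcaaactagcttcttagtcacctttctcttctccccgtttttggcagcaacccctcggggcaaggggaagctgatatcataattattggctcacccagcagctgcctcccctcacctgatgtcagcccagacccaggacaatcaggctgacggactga
A match describes the letters of the window and is no evidence of binding, and the absence of a match says only that these letters are not in this window.

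The defining genes of mTECs were present in every library. Of 12 mTEC markers, the MHC class II gene *H2-Aa*, which other antigen-presenting cells also carry, stood between 14864 and 16768 TPM (a level scaled to transcript length and to the library), and the other 11, with *Epcam*, *Aire*, *Fezf2* and *Cd80* among them, summed to between 5422 and 7700 TPM. *Enpep*, which encodes the Ly51 antigen used to leave out cTECs, stood at 10.96 and 9.12 TPM in WT and at 10.3 and 8.18 TPM in the cKO-labelled libraries. *Enpep* was thus low but present in every library, and its log2 fold change was -0.11 (standard error 0.31). Markers of other cells were also present. The 12 thymocyte markers summed to between 1342 and 1830 TPM in WT and between 988 and 1541 TPM in the cKO-labelled libraries, with none at 0 counts. The 8 macrophage markers summed to between 6625 and 11104 TPM in WT and between 4093 and 4411 TPM in the cKO-labelled libraries. *Lyz2* alone held 9532 and 5941 TPM of this in WT and 3664 and 3955 TPM in the cKO-labelled libraries. All 8 had a negative fitted log2 fold change, against 9343 of the 18547 genes tested. The groups did not overlap for 6 of them, against 20.3% of all genes in this direction, and overlapped for *Mertk* and *Mrc1*. In the edgeR fit described below, 5 were lower at an unadjusted p of 0.05, against 3.32% of all genes. DESeq2 gave 4 of them an adjusted p under 0.05, against 1.88% of all genes.

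**Figure D1:**
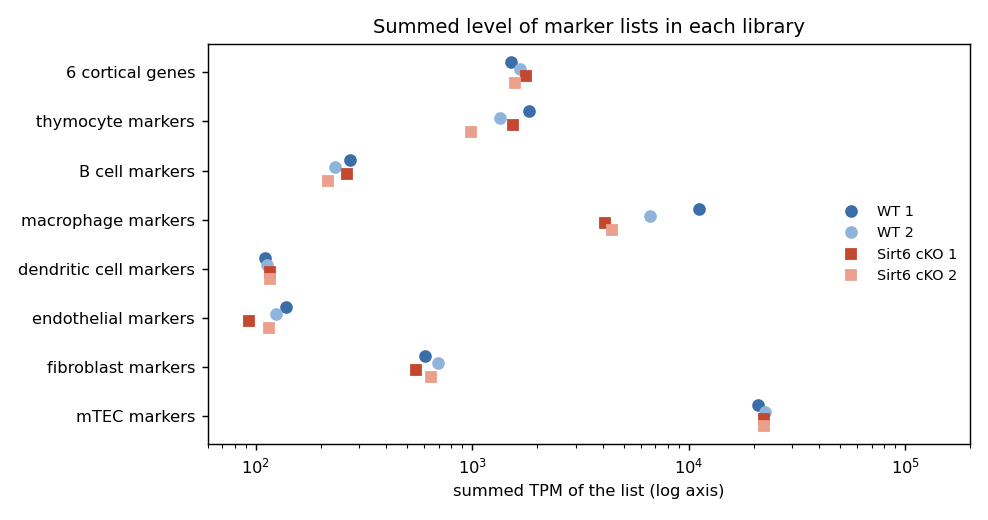
Summed TPM of the 6 cortical genes and of 7 marker lists (log axis), with 1 point for each of the 4 libraries. The 6 genes sum to between 1511 and 1766 TPM, with the groups overlapping. *Tbata* alone holds between 1103 and 1247 TPM of these sums. The macrophage list lies lower in both cKO-labelled libraries.

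Within this mTEC sort the 6 genes spanned a wide range of levels. *Tbata* was the most abundant, at 1103 and 1247 TPM in WT and 1190 and 1147 TPM in the cKO-labelled libraries, and it ranked between 74 and 87 of all genes. In WT it was followed by *Prss16* (220 ± 1.69 TPM; SD, n = 2) and *Foxn1* (133 ± 20.3 TPM; SD, n = 2). *Psmb11* (24.5 ± 5.71 TPM), *Ly75* (18.9 ± 2.34 TPM) and *Dll4* (17.9 ± 5.94 TPM; SD, n = 2 for each) came last in WT, and these neighbours did not differ beyond their spread. In the cKO-labelled libraries, *Foxn1* (235 ± 15.8 TPM; SD, n = 2) lay above *Prss16* (164 ± 63.2 TPM; SD, n = 2), in each of the 2 libraries. There *Ly75* (41.3 ± 18.3 TPM) and *Dll4* (37.9 ± 2.52 TPM; SD, n = 2 for each) overlapped, and *Psmb11* (20.5 ± 14.5 TPM; SD, n = 2) was the lowest of the 6 in both libraries.

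**Figure D2:**
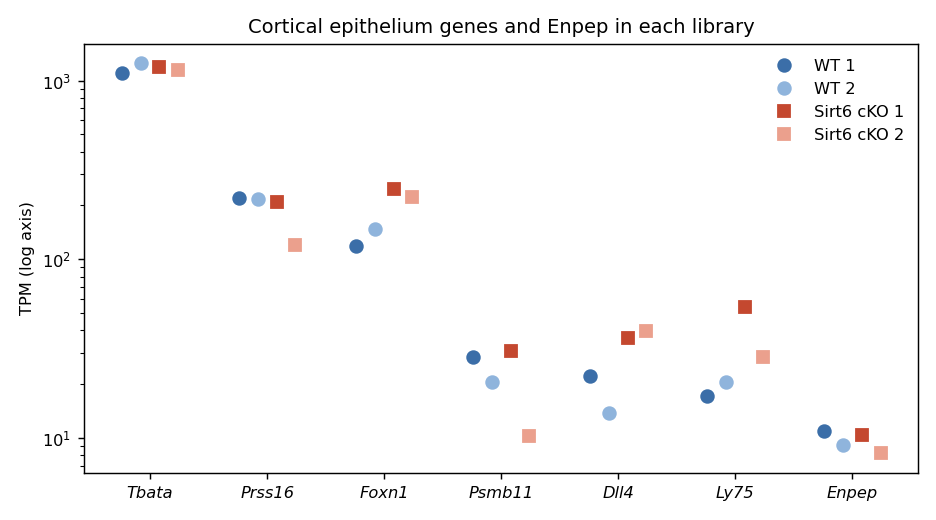
TPM (log axis) of the 6 genes and of *Enpep* in the 4 libraries, with circles for WT and squares for *Sirt6* cKO. *Foxn1*, *Dll4* and *Ly75* lie higher in both cKO-labelled libraries, and *Tbata* lies between 1103 and 1247 TPM in all 4.

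To ask whether these 6 genes differ between the groups in sorted mTECs, the counts were compared in a fit over all 18547 genes. Cortical cells themselves were not profiled. The 6 genes were chosen with earlier results of these data known, so their counts beside all genes are a description. At an unadjusted p of 0.05, 3 of the 6 genes were higher in the cKO-labelled libraries and 0 were lower, where 8.58% of all genes tested passed, with 5.27% higher and 3.32% lower. At an adjusted p of 0.05, 0 of the 6 passed in the quasi-likelihood test of edgeR, against 0.00539% of all genes, which is 1 gene. DESeq2 gave 1 of the 6, *Foxn1*, an adjusted p under 0.05, against 1.88% of all genes. By the sign of the log2 fold change alone, 4 of the 6 were higher, against 49.6% of all genes. The groups did not overlap in CPM for 4 of the 6, 3 higher and 1 lower, against 41.9% of all genes. In such bulk samples, more cells of a kind and more RNA per cell cannot be told apart.

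*Foxn1* lies on chromosome 11 (GRCm38, which is mm10) from 78357577 to 78386558 on the minus strand. It gave counts of 8984 (WT 1), 10545 (WT 2), 17098 (cKO 1) and 16415 (cKO 2). Both cKO-labelled libraries lay above both WT libraries, and the replicates of each group lay close together. On the scale of CPM (counts scaled to the TMM-normalized library size), its mean was 151 ± 20.1 in WT and 270 ± 19.3 in the cKO-labelled libraries (SD, n = 2). It was thus 1.78-fold higher (log2 fold change 0.83, standard error 0.18), and edgeR gave an unadjusted p of 0.00532 and an adjusted p of 0.54. DESeq2 put the adjusted p at 0.0308. With any 1 library left out, the log2 fold change of *Foxn1* lay between 0.68 and 0.97, and an unadjusted p of 0.05 was passed each time. None of its 50-base words occurred in transcripts of another gene (0%), so its counts are not shared with a near copy. Markers of mTECs differed in level as well. Of the 12 mTEC markers, 9 were higher by log2 fold change, against 49.6% of all genes, and 3 lower. At an unadjusted p of 0.05, 3 were higher (*Epcam*, *Aire* and *Cd80*) and 1 lower (*Ccl21a*), against 8.58% of all genes in either direction. None was at 0 counts, and their part and that of the macrophage markers in the *Foxn1* difference were not tested.

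**Figure D3:**
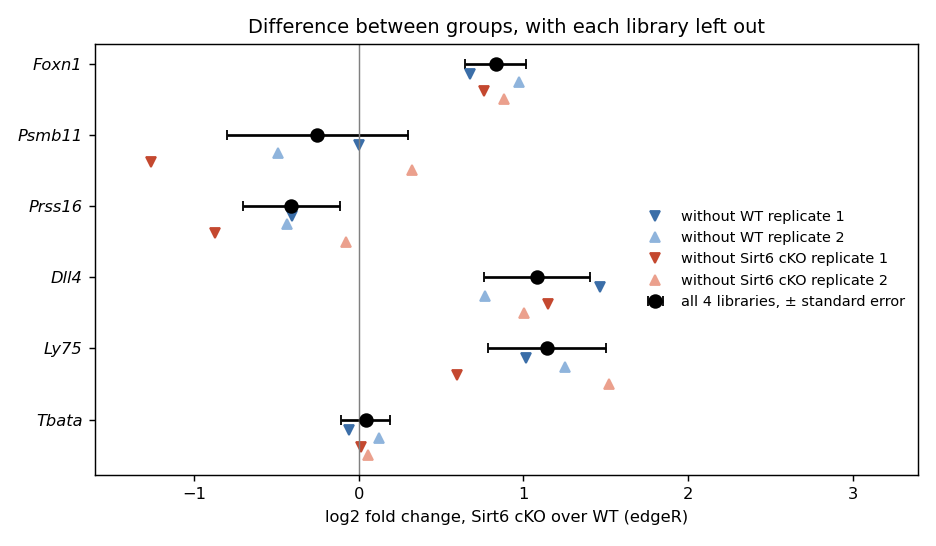
Log2 fold change of each gene in the cKO-labelled libraries over WT, with the standard error of the fit on all 4 libraries (black) and the value with each library left out (coloured triangles). *Foxn1* keeps to values between 0.68 and 0.97, whereas *Psmb11* ranges from -1.26 to 0.32.

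The Notch ligand gene *Dll4* was likewise higher in both cKO-labelled libraries. It lies on chromosome 2 from 119325784 to 119335962 on the plus strand, and gave counts of 2307 (WT 1), 1354 (WT 2), 3457 (cKO 1) and 4009 (cKO 2). The groups did not overlap, which held for 21.6% of all genes tested in this direction, and the replicates of WT were the farther apart. Its mean was 28.3 ± 9.88 CPM in WT and 59.9 ± 3.70 CPM in the cKO-labelled libraries (SD, n = 2). This gave 1.08 on the log2 scale (standard error 0.32, unadjusted p = 0.0172 and adjusted p = 0.54 from edgeR's test). An unadjusted p of 0.05 was not passed without WT 2 (log2 fold change 0.77) or without cKO 2 (1.01). *Dll4* exons overlap those of *Gm14207* on the other strand by 214 bases, and 4.46% of its 50-base words are shared with that gene. *Dll4* is also a gene of endothelial cells. The 8 endothelial markers summed to between 124 and 138 TPM in WT and between 93.3 and 115 TPM in the cKO-labelled libraries, with none at 0 counts. Of these 8, *Cdh5* (log2 fold change 0.89, groups without overlap) and *Tie1* (0.60, overlapping) had higher fitted values and the other 6 lower ones, and their part in the *Dll4* difference was not tested.

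*Ly75*, the DEC-205 gene, showed the largest log2 fold change of the 6. It lies on chromosome 2 from 60292103 to 60383303 on the minus strand, and gave counts of 2687 (WT 1), 3028 (WT 2), 7780 (cKO 1) and 4290 (cKO 2). Again both cKO-labelled libraries lay above WT, but cKO 1 stood far above cKO 2. The means were 44.3 ± 4.62 CPM in WT and 97.9 ± 43.9 CPM in the cKO-labelled libraries (SD, n = 2). Its fitted log2 fold change came to 1.14 (standard error 0.36, unadjusted p = 0.0216 and adjusted p = 0.54 from edgeR's test). Its size depended on cKO 1, and without that library it was 0.60. An unadjusted p of 0.05 was not passed without cKO 1, without WT 1 (1.01) or without WT 2 (1.25). Exons of *Ly75* overlap those of *Gm13571* on the other strand by 249 bases, and 2.20% of its 50-base words are shared with it. The 8 dendritic cell markers summed to between 110 and 113 TPM in WT and to 116 TPM in each cKO-labelled library, with none at 0 counts. *Siglech* was the most abundant, at 52.0 and 65.1 TPM in WT and 72.7 and 60.3 TPM in the cKO-labelled libraries. Of these 8, 3 had higher fitted values, *Zbtb46* (log2 fold change 0.56, groups without overlap), *Siglech* (0.20) and *Clec9a* (0.20, both overlapping). The other 5 had lower ones, and the median was -0.28. Their part in the *Ly75* difference was not tested.

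The genes of the cortical antigen processing machinery gave lower fitted values without passing the test. *Psmb11*, on chromosome 14 from 54621433 to 54629556 on the plus strand, gave counts of 3658 (WT 1), 2478 (WT 2), 3617 (cKO 1) and 1265 (cKO 2). The groups overlapped, since cKO 1 stood at 59.9 CPM, above WT 1 at 55.9 CPM, while cKO 2 stood at 19.7 CPM. The log2 fold change was -0.25 (standard error 0.55, unadjusted p = 0.665 and adjusted p = 0.94 from edgeR's test). It was -1.26 without cKO 1 and 0.32 without cKO 2, and it was 0.0045 without WT 1, so no direction can be given for *Psmb11*. Of its 50-base words, 2.95% also occur in transcripts of other genes. *Prss16*, on chromosome 13 from 22002173 to 22009742 on the minus strand, gave counts of 14346 (WT 1), 13411 (WT 2), 12451 (cKO 1) and 7523 (cKO 2). Both cKO-labelled libraries lay below WT, as 20.3% of all genes tested did, and the distance came mainly from cKO 2 at 117 CPM, with cKO 1 at 206 CPM close to WT 2 at 211 CPM. The log2 fold change of *Prss16* was -0.41 (standard error 0.29, unadjusted p = 0.219 and adjusted p = 0.75 from edgeR's test), and it was -0.08 without cKO 2 and -0.87 without cKO 1.

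*Tbata* differed least. It lies on chromosome 10 from 61171954 to 61188841 on the plus strand, and gave counts of 38427 (WT 1), 41668 (WT 2), 39466 (cKO 1) and 40076 (cKO 2). The cKO-labelled libraries lay between the WT libraries, and the highest TPM was 1.13-fold the lowest. The log2 fold change was 0.04 (standard error 0.15, unadjusted p = 0.785 and adjusted p = 0.96 from edgeR's test), with the sign turning to -0.04 under upper quartile normalization to -0.05 with library size alone and to -0.0053 with limma on TPM. No difference was detectable for *Tbata* between these libraries.

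A ratio of 2 genes within a library does not depend on how the libraries were scaled, and each gene was therefore set against *Foxn1* by TPM. The ratio of *Prss16* to *Foxn1* was 1.86 in WT 1, 1.48 in WT 2, 0.847 in cKO 1 and 0.533 in cKO 2. The ratio of *Psmb11* to *Foxn1* was 0.240 and 0.138 in WT and 0.125 and 0.0454 in the cKO-labelled libraries. The ratio of *Tbata* to *Foxn1* was 9.28 and 8.44 in WT and 4.83 and 5.12 in the cKO-labelled libraries. These 3 ratios were lower in both cKO-labelled libraries, as were those of 64% of all other genes tested, since a higher *Foxn1* value by itself lowers the ratio of a gene that does not differ. In contrast, the ratios of *Dll4* (0.140 ± 0.0659 in WT and 0.162 ± 0.0216; SD, n = 2) and of *Ly75* (0.142 ± 0.00408 and 0.173 ± 0.0663; SD, n = 2) to *Foxn1* overlapped between the groups. The 5 ratios share the *Foxn1* values and were looked at after these were known, and an exact two-sided permutation test of 2 libraries against 2 cannot go below p = 0.333.

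**Figure D4:**
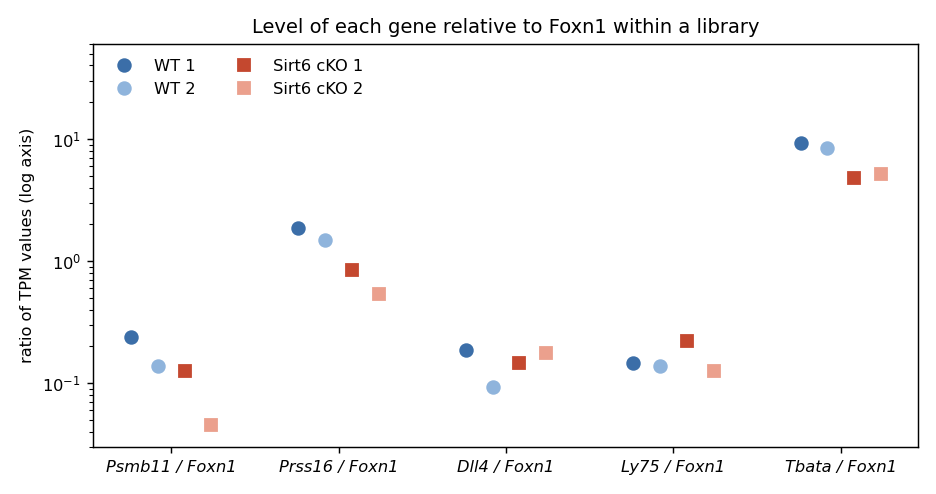
TPM of 5 genes divided by the TPM of *Foxn1* in the same library (log axis), for 2 WT libraries (circles) and 2 cKO-labelled libraries (squares). The ratios of *Psmb11*, *Prss16* and *Tbata* lie lower in both cKO-labelled libraries, and those of *Dll4* and *Ly75* overlap.

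The cKO-labelled replicates differed in the cortical genes. *Psmb11* was 3.04-fold, *Ly75* 1.93-fold and *Prss16* 1.76-fold higher by CPM in cKO 1 than in cKO 2, while the ratio was 1.11 for *Foxn1*, 1.05 for *Tbata* and 0.916 for *Dll4*. Of the 6 genes, 5 were higher in cKO 1, where 49.7% of all genes tested were. Of the 12 thymocyte markers, 11 were also higher in cKO 1, and the 12 summed to 1541 TPM there and to 988 TPM in cKO 2. All 12 were likewise higher in WT 1 than in WT 2, against 9449 of the 18547 genes tested, with sums of 1830 and 1342 TPM. Their part in the spread of the cortical genes was not tested.

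The profiles of the 6 genes over the 4 libraries were compared by the root mean square difference of their centred log2 CPM, as a description over 4 points that share library and depth. Among 10408 other genes with a mean of at least 10 CPM, *Rptn* (0.0239), *Baiap2* (0.0253) and *Wdr90* (0.0265) were the nearest to *Foxn1*. *Ly75* was the nearest of the 5 cortical genes to *Foxn1*, at a difference of 0.307 and place 1795, and *Psmb11* was the farthest, at 0.866 and place 9684. *Zfp426* (0.106), *Spc24* (0.117) and *H2-M10.5* (0.119) were the nearest to *Psmb11*, with *Prss16* at place 91 (0.323). For *Prss16* they were *Rab27a* (0.0536), *Lair1* (0.0674) and *Skap1* (0.0711), with *Psmb11* at place 1669 by the same difference of 0.323. *Mier2* (0.0557), *Prkaa1* (0.0616) and *Xkr5* (0.0823) lay nearest to *Dll4*, and *Dnm3* (0.0435), *Klhl21* (0.0580) and *Insig1* (0.0628) nearest to *Ly75*. *Cep76* (0.0119), *Ppp3ca* (0.0206) and *Sdha* (0.0210) had profiles nearest to that of *Tbata*. The 6 genes thus did not share 1 profile, and *Foxn1* and *Psmb11* lay far apart in it.

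Other genes of the cortical epithelium were read in the same way. Of 15 such genes, which comprise the chemokines *Ccl25* and *Cxcl12*, the cytokines *Il7* and *Kitl*, the protease *Ctsl*, the keratins *Krt8* and *Krt18* and others, 1 was higher and 0 were lower at an unadjusted p of 0.05, near the 8.58% of all genes that passed, and 0 passed an adjusted p of 0.05 in edgeR's test. Their median log2 fold change was -0.10, against -0.0047 over all genes tested. The groups did not overlap in CPM for 3 lower genes, *Ctsl*, *Krt8* and *Krt18*, against 20.3% of all genes in this direction. Nor did they for 2 higher ones, *Kitl* and *Gper1*, against 21.6%. The gene that passed was *Kitl*, which encodes the ligand of the receptor KIT on early progenitors. *Kitl* gave counts of 1798 (WT 1), 1384 (WT 2), 5934 (cKO 1) and 3039 (cKO 2), with a log2 fold change of 1.57 (standard error 0.41, unadjusted p = 0.0105 and adjusted p = 0.54 from edgeR's test). Both cKO-labelled libraries lay above WT, and DESeq2 gave *Kitl* an adjusted p of 0.0188. *Isoc1* had the lowest value of the list, at -0.83 (standard error 0.70), and *Krt18* was the most abundant, at 3127 ± 638 TPM in WT and 2345 ± 225 TPM in the cKO-labelled libraries (SD, n = 2). The chemokine that draws progenitors into the thymus, *Ccl25*, stood at 161 ± 0.950 TPM in WT and 149 ± 28.4 TPM in the cKO-labelled libraries (SD, n = 2), and its groups overlapped.

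Of 15 genes known to act upstream of *Foxn1* or beside it in the thymic primordium, such as *Pax1*, *Pax9*, *Eya1*, *Bmp4* and *Wnt4*, 1 was higher and 0 were lower at an unadjusted p of 0.05, again near the 8.58% of all genes, and the median log2 fold change was -0.19 against -0.0047 over all genes. *E2f3*, a cell cycle transcription factor that also acts on *Foxn1*, gave counts of 343 (WT 1), 217 (WT 2), 751 (cKO 1) and 534 (cKO 2), higher in both cKO-labelled libraries. Its log2 fold change was 1.26 (standard error 0.45, unadjusted p = 0.0340 and adjusted p = 0.55 from edgeR's test). The extremes of the list were genes of few counts, *Hoxa3* with counts of 0 (WT 1), 34 (WT 2), 62 (cKO 1) and 64 (cKO 2), and *Tbx1* with counts of 90 (WT 1), 91 (WT 2), 0 (cKO 1) and 52 (cKO 2). With cKO 1 left out, neither *E2f3* nor *Kitl* passed an unadjusted p of 0.05, and *E2f3* did not pass without WT 2 or in either limma fit.

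The partners and alternatives of β5t in the proteasome core were also measured. Of 10 other β subunit genes, 0 passed an unadjusted p of 0.05 in edgeR's test or in DESeq2's adjusted test, and their median log2 fold change was -0.05, with *Psmb7* at 0.14 and *Psmb3* at -0.44. *Psmb5* and *Psmb8* encode the subunits that take the place of β5t in the constitutive proteasome and in the immunoproteasome. *Psmb5* stood at 21.9 and 20.9 TPM in WT and 25.7 and 16.5 TPM in the cKO-labelled libraries, and *Psmb8* at 57.8 and 58.7 TPM in WT and 54.3 and 60.7 TPM there. Of the summed TPM of these 3 genes, *Psmb11* held 26.4% in WT 1, 20.4% in WT 2, 27.7% in cKO 1 and 11.7% in cKO 2. The transcript of the cortical subunit was thus the smaller share beside *Psmb8* in all 4 libraries, and the groups overlapped.

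The relatives of *Foxn1* and of *Dll4* did not pass the test on all 4 libraries. Of the 3 other *Foxn* genes, 0 passed an unadjusted p of 0.05 in edgeR's test, and *Foxn2* had the highest log2 fold change, at 0.67 (standard error 0.48), with 5161 counts in cKO 1 and 2119 in cKO 2. *Foxn3* was the most abundant of them and had the lowest value, at -0.10 (standard error 0.23). Of the 4 other Notch ligands, 0 passed, and DESeq2 gave 0 of these 7 genes an adjusted p under 0.05. *Jag1*, the most abundant, stood at 16.3 ± 1.54 TPM in WT and 20.0 ± 0.103 TPM in the cKO-labelled libraries (SD, n = 2), *Dll3* had the highest log2 fold change at 0.44 (standard error 0.52), and *Jag2* the lowest at -0.96 (standard error 0.56). *Dll4* thus stood at 37.9 TPM against 20.0 TPM for *Jag1* in the cKO-labelled libraries, and at 17.9 TPM against 16.3 TPM in WT, where the values of the genes overlapped. An unadjusted p of 0.05 was passed by *Jag2* with the replicate number as a block, and by *Foxn2* without cKO 2.

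**Figure D5:**
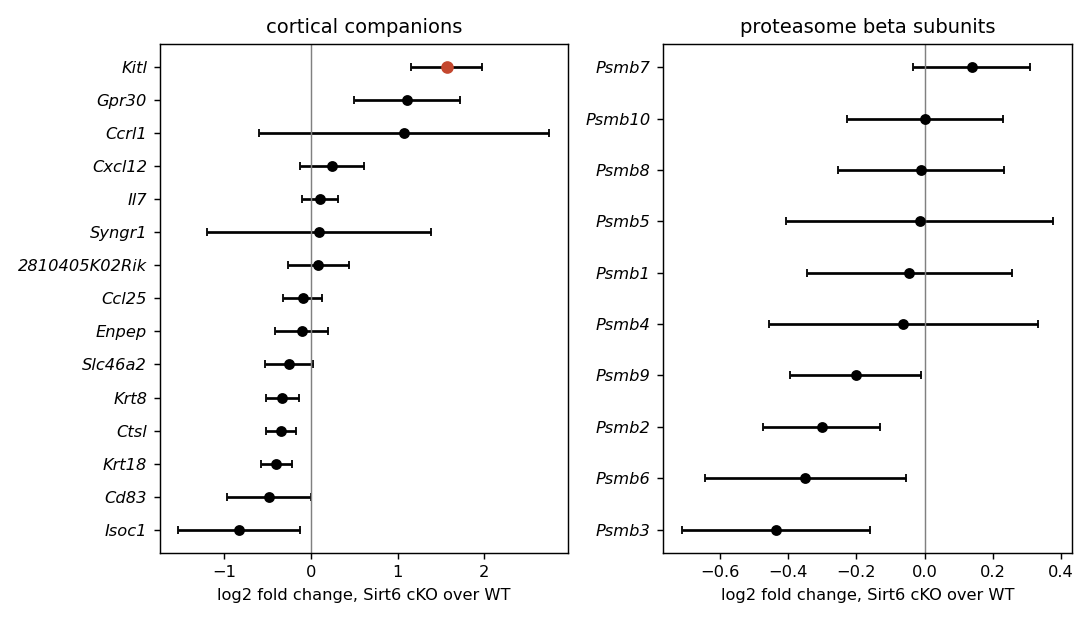
Log2 fold change with standard error (edgeR) of 15 other genes of the cortical epithelium (left, file symbols *Gpr30*, *Ccrl1* and *2810405K02Rik* for *Gper1*, *Ackr4* and *Prxl2b*) and of 10 proteasome β subunits (right), *Sirt6* cKO over WT. *Kitl* (1.57, red) alone passes an unadjusted p of 0.05 among these 25 genes.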

How the data were processed

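RNA-seq of sorted mTECs covered 2 WT libraries and 2 labelled *Sirt6* cKO. Trimmed reads were mapped by the authors with HISAT2 2.1.0 against mm10, and StringTie 1.3.3 quantified the genes, per the labels and the methods; the annotation and the use of strand are not given in the sources used here. The deposited counts are whole numbers without normalization, for 23337 symbols. The deposited TPM values sum to 1000000 in each library once 1 line per file that names no gene and holds the total is left out. Replicates were not pooled by the authors, and no pair of libraries agreed within sampling noise (chi-square per gene 161 or more).

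Counts were tested in 1 fit over all genes with edgeR 4.0.16 in R 4.3.3 (TMM, filterByExpr at min.count 10 and min.total.count 15, glmQLFit and glmQLFTest), and p-values were adjusted over 18547 genes by the Benjamini-Hochberg method at 0.05. The biological coefficient of variation was 0.557. Alternatives were a fit with DESeq2 1.42.0, scaling by upper quartile or by library size only, no filter or one that keeps genes above 0.1 TPM in each library, a block for the replicate number, limma 3.58.1 with a pseudocount of 1 or 0.1 on log2 TPM, and fits that omit a single library. The procedure was also run on simulated counts. These were set to vary less between libraries than the data, so they do not measure what can be detected here. Positions, exon overlaps and shared 50-base words came from GENCODE M21, and promoter sequences from RefSeq on GRCm38.p6.

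The members and gene lists were chosen with earlier results of these data known. Of 114 list symbols all 114 were matched, 4 through RefSeq synonyms. The text names the 6 genes with values in each library; *Sirt6*; of each list, the genes that passed an unadjusted p of 0.05, those with the highest and lowest log2 fold change and the most abundant; *Enpep*, *Psmb5* and *Psmb8*; and for each of the 6 genes the 3 with the nearest profile. Other genes were named after their values were seen. In addition, 1 further gene that the rule names is not reported here.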

Additional observations from a re-analysis of the deposited data

How the results depend on the processing

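*Foxn1*, *Dll4* and *Ly75* had positive and *Prss16* negative log2 fold changes under all 12 alternatives. Over the 8 alternatives on all 4 libraries, values lay between 0.74 and 0.84 for *Foxn1*, 0.999 and 1.13 for *Dll4*, 1.03 and 1.14 for *Ly75*, -0.50 and -0.41 for *Prss16* and -0.45 and -0.25 for *Psmb11*. *Foxn1* passed an adjusted p of 0.05 with DESeq2 alone (0.82, adjusted p = 0.0308, with a range of 0.0308 to 0.78 over these alternatives), which moved the count of the 6 genes from 0 to 1. *Tbata* turned to -0.039 with upper quartile normalization, -0.048 with library size alone and -0.0053 in both limma fits.

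Fits that omit a library leave a group with a lone library, assumed to vary like the others. Values then lay between -1.26 and 0.32 for *Psmb11* (0.0045 without WT 1), -0.059 (without WT 1) and 0.12 for *Tbata*, 0.68 and 0.97 for *Foxn1*, 0.77 and 1.47 for *Dll4*, 0.60 and 1.52 for *Ly75* and -0.87 and -0.08 for *Prss16*. Which of the 6 genes passed an unadjusted p of 0.05 thus depended on the library left out. The lowest values of *Psmb11*, *Prss16* and *Ly75* came with cKO 1 left out, and the lowest value of *Dll4* with WT 2 left out.

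Of the 47 genes in the 5 other lists, 2 passed an unadjusted p of 0.05, against 8.58% of all genes. The count was 4 with upper quartile normalization (8.36% of all genes) and 4 with library size alone (8.41%). In these fits *Ctsl* (-0.43 and -0.44) and *Krt18* (-0.48 and -0.49) joined, both lower. The count was 4 with the replicate number as a block (6.18%), where *Krt18* (-0.39) and *Jag2* (-0.96) joined, both lower. In each limma fit it was 1 (9.61% and 9.32%). Which of the 47 genes passed also changed with the library left out, and the cause was not tested. The deviations of same-numbered libraries had a correlation of -0.05 over 18547 genes, so no pairing by number was seen over all genes together. A factor that touches only part of the genes might not show there. The thymocyte markers were higher in replicate 1 for 12 of 12 genes in WT and for 11 of 12 in the cKO-labelled libraries. Over all 18547 genes tested, 9449 were higher in replicate 1 in WT and 9221 in the cKO-labelled libraries. Whether same-numbered libraries share a preparation was not tested. The block gave a log2 fold change of 0.84 for *Foxn1* and left 3 of the 6 genes at the unadjusted p. With 2 libraries in each group, the standard errors of *Psmb11*, at 0.55, and of other genes whose replicates lie apart limit what can be detected.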
